A study of Lupinus albus with 12 samples.

Results

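Nodulin is the name given to plant proteins first found through root nodules of legumes, and 198 of the 125821 annotated white lupin (Lupinus albus) sequences carry that word in the description of their best match. They were chosen from the last column of the deposited annotation, which had to contain the word nodulin and not name a MATE efflux protein, a wording that occurred in 0 of them. All 198 had a value in the expression matrix of 125535 sequences. The filter of 1 RPKM (reads scaled to sequence length and library total) or more in at least 3 of the 12 libraries kept 177 of them, among 87081 sequences tested in all, and the 21 others reached at most 8.8 RPKM in any library.

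The members fell under 21 exact descriptions, of which 11 were shared by several sequences and 10 belonged to a single sequence. The largest was nodulin MtN21 family protein, with 70 sequences of which 61 were tested. Nodulin MtN3 family protein had 36 sequences (35 tested), nodulin family protein 29 (28 tested), nodulin, putative 12 (10 tested), proteins with a Nodulin-like InterPro domain 9 (9 tested) and nodulin-related 9 (7 tested). A pair of longer descriptions named a DUF6 transmembrane domain with an MtN21 family protein as the closest Arabidopsis match, AT2G40900 in 7 sequences (7 tested) and AT1G68170 in 4 sequences (4 tested). The remaining shared descriptions were MtN21-related, with 5 sequences (4 tested), early nodulin-related, with 4 (4 tested), and universal stress protein or early nodulin ENOD18, with 3 (3 tested). The descriptions of a single sequence were uricase or nodulin 35 and those giving a score against a named Arabidopsis locus.

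RNA sequencing was run on white lupin of the variety Ultra, harvested 14 days after emergence. The 4 groups of 3 plant replicates were roots of phosphorus-deficient plants, which the labels call proteoid roots, roots of phosphorus-sufficient plants, leaves of phosphorus-deficient plants and leaves of phosphorus-sufficient plants. Deficient plants received 1 mM CaSO4 and sufficient plants 1 mM Ca(H2PO4)2. Only the deficient roots are labelled proteoid, so root type and phosphorus supply cannot be told apart in roots. The labels do not say whether the plants carried rhizobia.

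Nodulins were defined in legumes as products that appear in the nodule, but most of the names in question now stand for broad families that plants without nodules also have. MtN21 proteins, first found in Medicago truncatula nodules, belong in Arabidopsis to the UMAMIT family, whose studied members carry amino acids and other metabolites across membranes. MtN3 is the founding name of the SWEET sugar transporters, and the wording nodulin, putative is used in Arabidopsis for relatives of soybean nodulin 21 in the family of vacuolar iron transporters. Which Arabidopsis protein each lupin sequence with that wording matched is not given in the files.

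A leaf library, deficient leaf replicate 3, stood apart in composition, and deficient root replicate 1 departed from its group to a smaller extent. The summed RPKM ran between 802814.9 and 947804.4 in 11 libraries and was 1178058.3 in deficient leaf replicate 3, where the 20 highest sequences held 70.91% of the sum, against 12.51% to 17.98% in the other leaf libraries. The median tested sequence had 0.9 RPKM in that library and 2.1 to 2.7 RPKM in the others. Counts of the main fit over all members that use deficient leaf replicate 3 are given with and without it. The same holds for most descriptions between tissues at deficient phosphorus. Counts under another filter or scaling are given with it only. So are counts from barcoded libraries only, where it is 1 of 2 deficient leaf libraries. At sufficient phosphorus it enters only through the pooled spread, and among descriptions the count without it is given for the Nodulin-like domain only. The median-of-ratios size factor was 1.36 in deficient root replicate 1 and 1.03 in replicates 2 and 3 of that group, against 1.22, 1.09 and 1.07 in sufficient roots. All 5 members called in roots were also called without deficient root replicate 1. Sequences with photosynthetic wording summed to 110.0 to 188.5 RPKM in root libraries and to 27196.6 to 123925.5 RPKM in leaf libraries, so the tissue labels and these markers went together.

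In deficient proteoid roots, 4 of the 10 tested sequences described as nodulin, putative rose between 3.03 and 5.02 on the log2(RPKM + 0.5) scale over sufficient roots. A single MtN21 sequence, LAGI01_39882, also rose, and no nodulin-described sequence was called lower in the main fit, which does not pair the replicates. That made 5 of the 177 tested members higher (2.82%) in limma at an adjusted p under 0.05, where 0.245% of all tested sequences were higher, 0.0345% lower and 0.279% called in either direction. At an unadjusted p under 0.05 the members numbered 32, where 4.31% of all tested sequences passed. The median difference of the 177 members was 0.07, against 0 over all tested sequences, with 98 differences above 0 and 79 below. With the replicate number as a block within each tissue, 7 members were higher (3.95%) and 1 lower (0.565%), where 0.459% and 0.189% of all tested sequences were. In bulk tissue, more cells of a type and more RNA per cell cannot be told apart.

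LAGI01_74540, described as nodulin, putative, had 12.5, 26.5 and 18.9 RPKM in deficient roots, against 0.0, 0.3 and 0.2 RPKM in sufficient roots. It was listed at 0 in all 6 leaf libraries. LAGI01_56202, of the same description, had 15.4, 46.3 and 39.8 RPKM in deficient roots, against 0.0, 0.6 and 1.1 RPKM in sufficient roots, and was also listed at 0 in every leaf library. For both, the lowest deficient root library lay above the highest sufficient one, and replicate 1 was the lowest of the deficient roots. The differences were 4.86 (SE 0.344) for LAGI01_74540 and 5.02 (SE 0.442) for LAGI01_56202, with limma adjusted p of 1.18e-06 and 1.16e-05. LAGI01_74540 reached 1 RPKM only in the 3 deficient root libraries, so it passed the filter through the group where it is high. It was the 1 member of which that holds, and it was also called with no filter. On this scale the added 0.5 RPKM keeps the difference below the ratio of the RPKM values, since sufficient roots were near 0.

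LAGI01_62142 and LAGI01_55606, also described as nodulin, putative, had a second pattern, with a level in leaves as well. LAGI01_62142 had 13.7, 26.7 and 25.8 RPKM in deficient roots, against 0.9, 1.3 and 0.9 RPKM in sufficient roots. Its leaf values were 3.3, 6.4 and 0.9 RPKM in deficient plants and 2.6, 2.3 and 1.1 RPKM in sufficient plants. Its groups did not overlap in roots and did in leaves, and the root difference was 3.83 (SE 0.493, limma adjusted p = 0.00108). LAGI01_55606 had 9.3, 17.5 and 13.7 RPKM in deficient roots, against 1.1, 1.2 and 1.2 RPKM in sufficient roots, a difference of 3.03 (SE 0.418, limma adjusted p = 0.0022). Its leaves held 2.8, 7.0 and 1.8 RPKM in deficient plants and 2.3, 3.1 and 3.9 RPKM in sufficient plants, which overlap. Sufficient roots thus lay below sufficient leaves for LAGI01_55606 (difference -1.09, limma adjusted p = 0.0457).

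The 4 sequences paired off in their profiles. Over the 12 libraries, which share the tissue and supply contrasts, the Pearson correlation of log2 values was 0.991 between LAGI01_74540 and LAGI01_56202 and 0.944 between LAGI01_62142 and LAGI01_55606, while across the pairs it ran from 0.776 to 0.886. Sequences this parallel may share reads with a near-identical copy, which the counting could split, and whether the 4 are separate genes was not tested. Summed over the 12 sequences of the description, the level was 109.7, 147.6 and 112.3 RPKM in deficient roots, against 18.8, 19.3 and 15.4 RPKM in sufficient roots. In a separate fit on values summed per description, the summed level rose by 2.75 (SE 0.453, limma adjusted p = 0.00271). In leaves the same sum was 36.3, 58.4 and 12.3 RPKM in deficient plants and 33.8, 26.0 and 29.1 RPKM in sufficient plants, with a difference of 0.01 (SE 0.453, limma adjusted p = 1.0).

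The other 6 tested sequences of the description all had a mean difference above 0 in roots, from 0.68 to 1.12, and none passed the test. LAGI01_57498 had 11.3, 19.5 and 7.8 RPKM in deficient roots, against 5.2, 8.4 and 5.3 RPKM in sufficient roots, and at most 0.4 RPKM in any leaf library. Its root groups overlap (difference 0.91, SE 0.374, limma adjusted p = 0.928). In the other 5, LAGI01_48968, LAGI01_50514, LAGI01_51169, LAGI01_62478 and LAGI01_64820, of which LAGI01_50514 and LAGI01_62478 were chosen after their values were seen, deficient root replicate 1 stood high and replicates 2 and 3 lay within or near the range of sufficient roots. LAGI01_48968, the most abundant of the 10 over all libraries, had 16.4, 5.4 and 4.2 RPKM in deficient roots, against 3.9, 4.6 and 4.6 RPKM in sufficient roots. LAGI01_62478 had 9.7, 1.7 and 0.4 RPKM in deficient roots, against 2.4, 0.2 and 0.8 RPKM in sufficient roots.

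**Figure D1:**
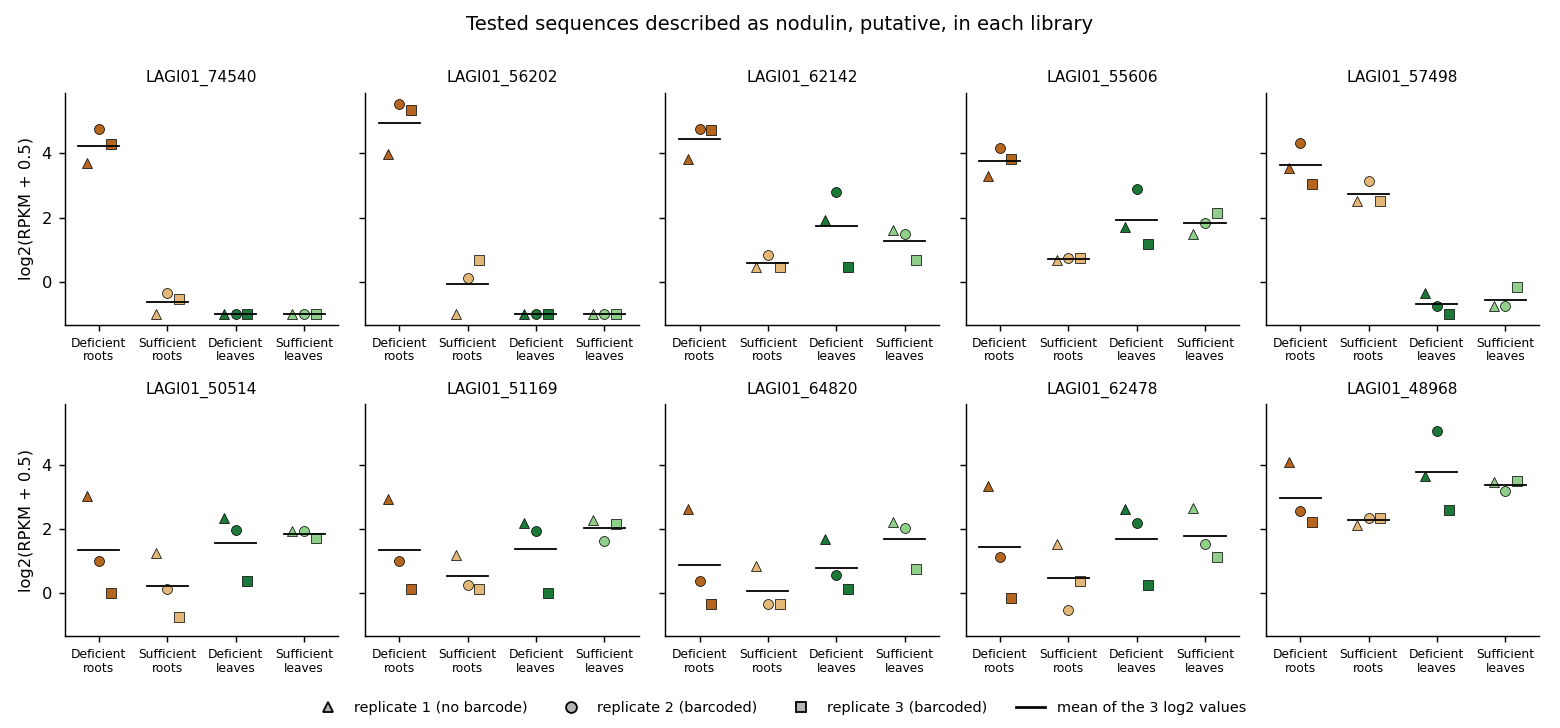
Level of each of the 10 tested sequences described as nodulin, putative, on the log2(RPKM + 0.5) scale, in deficient roots, sufficient roots, deficient leaves and sufficient leaves. Points are libraries, shaped by replicate, and bars are group means. The first 4 panels show root groups that do not overlap, with LAGI01_74540 and LAGI01_56202 listed at 0 in leaves, and in 5 of the last 6 panels deficient root replicate 1 is the highest root library.

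LAGI01_39882 was the only one of 61 tested MtN21 sequences called in roots. It had 29.6, 26.6 and 28.2 RPKM in deficient roots, against 5.5, 5.6 and 5.2 RPKM in sufficient roots, and was listed at 0 in all leaf libraries. The root groups do not overlap and their replicates lie close together, and the difference of 2.27 (SE 0.281) had a limma adjusted p of 0.000741. The summed level of the 70 MtN21 sequences was 762.3, 544.2 and 655.5 RPKM in deficient roots and 636.9, 598.6 and 567.3 RPKM in sufficient roots, which overlap (difference 0.11, SE 0.401, limma adjusted p = 1.0). The 61 tested differences ran from -1.4 to 2.27 with a median of 0.09, and 34 were above 0.

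Other sequences of MtN21 wording had differences in either direction that did not pass the test, and of those that follow LAGI01_53370, LAGI01_59739 and LAGI01_61571 were chosen after their values were seen. LAGI01_39947 had 5.6, 3.1 and 3.2 RPKM in deficient roots, against 18.7, 7.3 and 8.4 RPKM in sufficient roots, groups that do not overlap (difference -1.35, SE 0.382, limma adjusted p = 0.305). LAGI01_53370 had 1.1, 6.9 and 5.3 RPKM in deficient roots, against 3.8, 18.9 and 14.1 RPKM in sufficient roots, and was lower in deficient roots within each replicate number (-1.38, SE 0.546, limma adjusted p = 0.87). LAGI01_59739 had 16.1, 3.4 and 3.3 RPKM in deficient roots, against 3.8, 0.8 and 0.7 RPKM in sufficient roots, with replicate 1 highest in both groups (1.73, SE 0.568, limma adjusted p = 0.526). LAGI01_61571, similar to the MtN21 family locus AT5G07050, had 8.5, 4.7 and 11.9 RPKM in deficient roots, against 2.1, 1.6 and 3.5 RPKM in sufficient roots (1.58, SE 0.439, limma adjusted p = 0.28).

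With the replicate number as a block within each tissue, 8 members passed in roots, 7 higher (3.95%) and 1 lower (0.565%), where 0.459% of all tested sequences were higher and 0.189% lower in that fit. Those gained were LAGI01_59739 (limma adjusted p = 0.0183) and LAGI01_61571 (0.0277), which were higher, and LAGI01_53370 (0.0331), which was lower. A fit on the root libraries alone called 3 members, all higher (1.69%), where 0.0574% of all tested sequences were higher. It left out LAGI01_55606 (limma adjusted p = 0.0537) and LAGI01_56202 (0.104). LAGI01_74540, LAGI01_39882 and LAGI01_62142 passed in all 21 alternative fits of the root comparison that keep the sequences apart.

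The DUF6 sequences split by their Arabidopsis match. All 7 near AT2G40900 had a root difference above 0, with a median of 1.25, and 0 passed the test, while 5 had an unadjusted p under 0.05. Their summed level was 126.0, 54.8 and 74.0 RPKM in deficient roots, against 39.9, 33.5 and 31.3 RPKM in sufficient roots, which do not overlap (difference 1.19, SE 0.522, limma adjusted p = 1.0). LAGI01_40432, the most abundant, had 44.8, 14.5 and 14.8 RPKM in deficient roots, against 13.5, 8.0 and 4.2 RPKM in sufficient roots (1.41, SE 0.465, limma adjusted p = 0.543). All 4 near AT1G68170 had a difference below 0, with a median of -0.89 and 0 called, and their sum was 3.6, 11.2 and 17.3 RPKM in deficient roots and 13.3, 18.8 and 27.9 RPKM in sufficient roots. Those 4 had profiles correlated at 0.994 to 0.999 over the 12 libraries and may share reads, so they are uncertain as separate genes.

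No MtN3, nodulin family, Nodulin-like domain, nodulin-related, early nodulin-related or ENOD18 sequence was called in roots in either direction. MtN3 sequences summed to 238.4, 223.8 and 279.0 RPKM in deficient roots and 222.4, 314.4 and 259.8 RPKM in sufficient roots, and 21 of the 35 tested differences were below 0 (median -0.11). The member of that wording with the smallest p was LAGI01_49490, with 2.4, 1.5 and 1.3 RPKM in deficient roots, against 0.4, 0.5 and 0.5 RPKM in sufficient roots (1.18, SE 0.429, limma adjusted p = 0.724). The 28 nodulin family sequences, membrane proteins of the major facilitator type, had a median of -0.1. LAGI01_39768, whose description names uricase or nodulin 35, the urate oxidase that soybean nodules use in ureide synthesis, had 42.9, 43.1 and 41.1 RPKM in deficient roots and 40.7, 35.1 and 25.4 RPKM in sufficient roots (0.35, SE 0.425, limma adjusted p = 1.0).

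In leaves, limma called 0 of the 177 members at an adjusted p under 0.05, with 13 at an unadjusted p under 0.05, where 0.0276% of all tested sequences were called in either direction and 7.76% had an unadjusted p under 0.05. The members' median difference was -0.04 and that of all tested sequences -0.236. Without deficient leaf replicate 3 the count was still 0, but 0 of all tested sequences were called in that fit, so this count says nothing particular to the members. Their median was then 0.12, against 0.06 over all tested sequences. The smallest p belonged to the MtN3 sequence LAGI01_47173, with 10.4, 19.6 and 10.7 RPKM in deficient leaves, against 9.5, 3.0 and 2.6 RPKM in sufficient leaves. The groups do not overlap, though sufficient leaf replicate 1 lay close to the deficient leaves (difference 1.5, SE 0.419, limma adjusted p = 0.288). Without that replicate LAGI01_47173 was the 1 member called (2.03, SE 0.389, limma adjusted p = 0.0115), 0.565% of members, where 0.204% of all tested sequences were higher and 1.5% lower.

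Some leaf members ran the other way. LAGI01_13000, with a Nodulin-like domain, had 1.1, 1.1 and 0.6 RPKM in deficient leaves, against 2.2, 3.0 and 3.3 RPKM in sufficient leaves (-1.22), and LAGI01_64125, nodulin-related, had 0.6, 0.2 and 0.0 RPKM in deficient leaves, against 1.3, 1.0 and 1.1 RPKM in sufficient leaves (-1.16, SE 0.334, limma adjusted p = 0.31). In the barcoded libraries only, replicates 2 and 3, limma called 5 members in leaves, 1 higher (0.565%) and 4 lower (2.26%). Of all tested sequences 0.726% were higher and 5.26% lower in that fit, above the members' shares in both directions, so the count is no result about the members. LAGI01_47173 was higher (2.19, adjusted p = 0.00144), and LAGI01_13000 (-1.46, adjusted p = 0.0481) and the MtN3 sequences LAGI01_36922 (-1.74, adjusted p = 0.0472), LAGI01_43344 (-1.64, adjusted p = 0.0421) and LAGI01_51516 (-1.86, adjusted p = 0.0207) were lower.

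The root and leaf responses of a sequence were also compared directly. The difference of responses, root minus leaf, passed for 3 of 177 members in limma, all higher, where 0.0597% of all tested sequences passed in either direction and 0.0586% were higher, and 23 members had an unadjusted p under 0.05, where 5.93% of all did. The 3 were LAGI01_74540 (4.86, SE 0.487, adjusted p = 0.000211), LAGI01_56202 (5.02, SE 0.625, adjusted p = 0.00159) and LAGI01_39882 (2.27, SE 0.398, adjusted p = 0.0476). Because all 3 were listed at 0 in every leaf library, the difference equals the root response, and it says that no leaf response was measurable, not that leaves responded otherwise. LAGI01_62142 (3.36, SE 0.697, adjusted p = 0.157) and LAGI01_55606 (2.91, SE 0.591, adjusted p = 0.136), which were detected in leaves, did not pass. With the replicate number as a block within each tissue LAGI01_62142 passed (adjusted p = 0.0244), and in barcoded libraries only both did, LAGI01_62142 with an adjusted p of 0.00605 and LAGI01_55606 with 0.0115. Without deficient leaf replicate 3 the count was 2, both higher (1.13%), where 0.0356% of all were higher, and LAGI01_56202 no longer passed (adjusted p = 0.0538). LAGI01_39882 passed in 6 of 20 alternative fits (adjusted p from 0.00187 to 0.41) and LAGI01_74540 in all 20. The members' median was 0.32 and that of all tested sequences 0.265, and without deficient leaf replicate 3 these were 0 and -0.06.

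**Figure D2:**
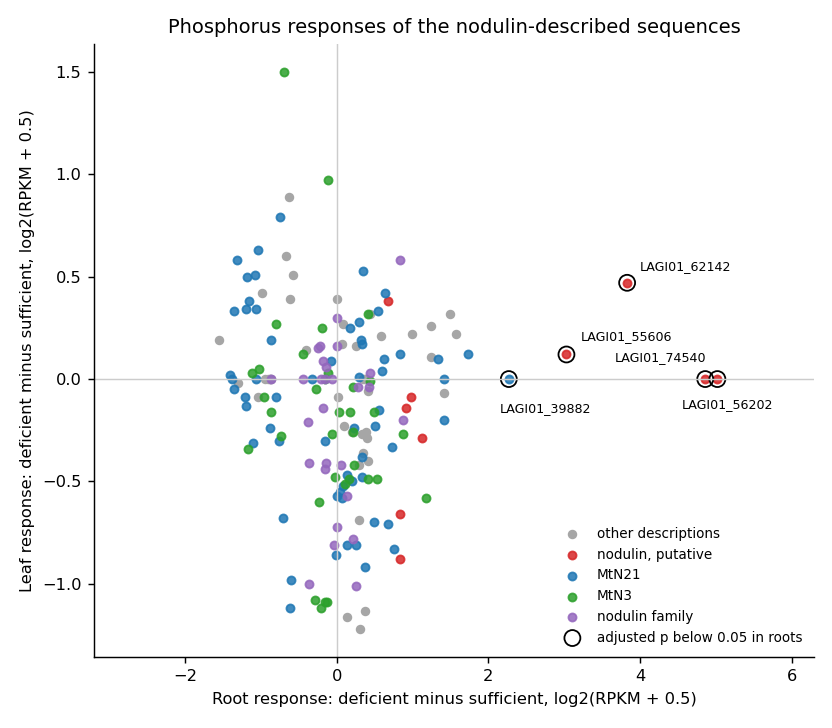
Leaf response against root response of the 177 tested nodulin-described sequences, each as deficient minus sufficient on the log2(RPKM + 0.5) scale. Each point is a sequence, coloured by description. The 5 ringed sequences passed in roots and lie between 2.27 and 5.02 on the root axis, and their leaf values run from 0 to 0.47.

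More of the tested nodulin-described sequences were higher in roots than in leaves than were lower. At deficient phosphorus, 92 of 177 members were higher in roots and 20 lower, where 29% of all tested sequences were higher and 13.2% lower. At sufficient phosphorus, 91 were higher and 23 lower, where 24.1% of all tested sequences were higher and 17.8% lower. The medians of the members were 1.21 at deficient and 1.31 at sufficient phosphorus, against 0.421 and 0.187 over all tested sequences. The comparisons use different libraries, and 80 members were higher in roots in both, 87.0% of those at deficient and 87.9% of those at sufficient phosphorus. Lower in both were 16 members, 80.0% and 69.6% of the lists. Leaving out deficient leaf replicate 3 gave 87 higher and 22 lower at deficient phosphorus, against 23.4% and 18.7% of all tested sequences. With median-of-ratios scaling, which moves the median of all sequences to 0.08 at deficient and 0.05 at sufficient phosphorus, 90 members were higher and 27 lower at deficient (26.3% and 22.6% of all) and 93 higher and 31 lower at sufficient phosphorus (26.1% and 24.9% of all). The filter bears on these counts, since 49 members reached 1 RPKM in root libraries only (27.7%, against 12.0% of all tested sequences) and 14 in leaf libraries only (7.91%, against 10.5%), and such sequences passed it through the tissue where they are high. With no filter, 92 of 198 members were higher and 17 lower at deficient phosphorus (20.8% and 9.6% of all), and 93 higher and 26 lower at sufficient phosphorus (18.3% and 14.4% of all).

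**Figure D3:**
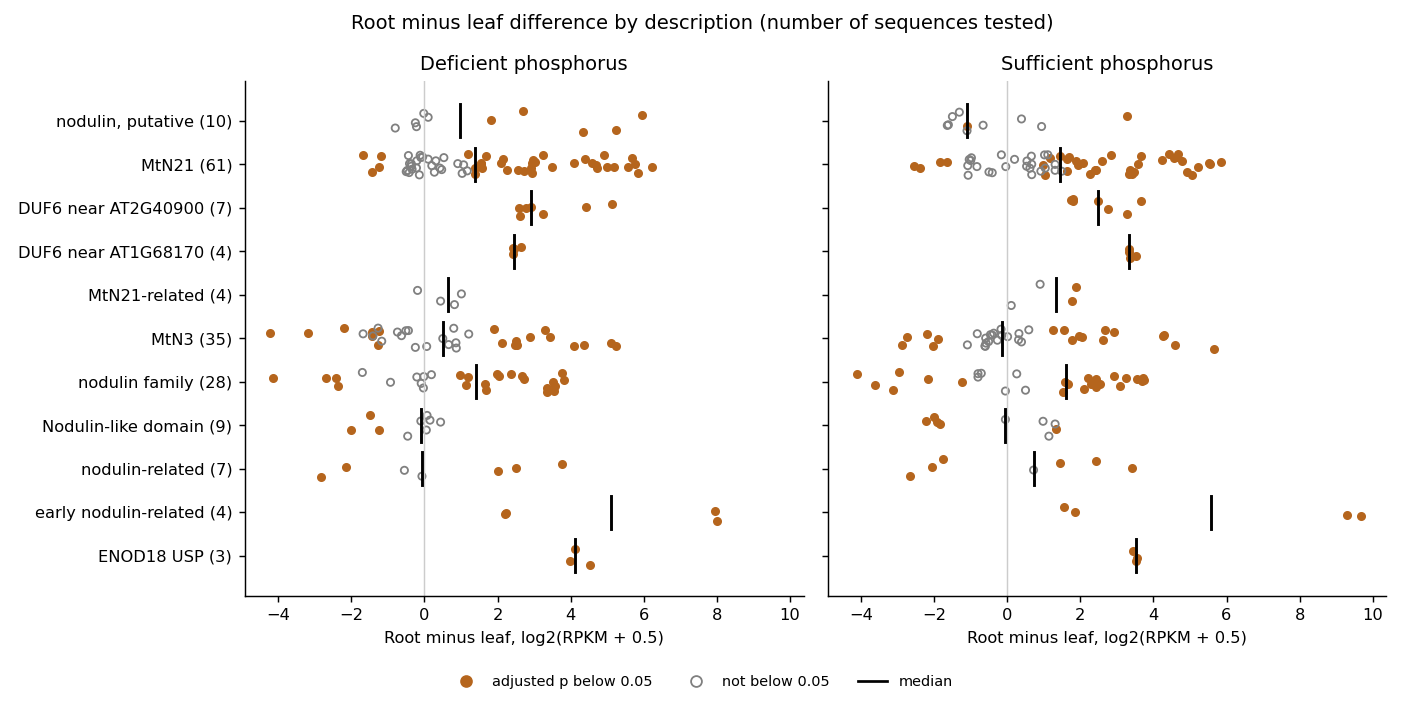
Root minus leaf difference on the log2(RPKM + 0.5) scale for the tested sequences of each description, at deficient phosphorus (left) and sufficient phosphorus (right). Filled points passed limma at an adjusted p under 0.05, open points did not, and bars are medians. Every sequence of the early nodulin-related, ENOD18 and both DUF6 descriptions lies to the right of 0 and passed, and the MtN3 and Nodulin-like domain descriptions reach to both sides.

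The early nodulin-related wording held the 2 most abundant members, LAGI01_71342 and LAGI01_75083. All 4 of its sequences were higher in roots at both supplies, where 29% of all tested sequences were at deficient and 24.1% at sufficient phosphorus. LAGI01_71342 had 11.9, 772.0 and 812.4 RPKM in deficient roots, 283.6, 730.9 and 937.6 RPKM in sufficient roots and at most 0.8 RPKM in any leaf library. The root minus leaf difference was 7.95 at deficient (SE 1.1, limma adjusted p = 2.02e-05) and 9.68 at sufficient phosphorus (SE 1.1, limma adjusted p = 1.93e-06). LAGI01_75083, whose profile correlated with it at 0.998, had 8.1, 805.6 and 832.9 RPKM in deficient roots and 215.5, 539.2 and 735.6 RPKM in sufficient roots. In both sequences replicate 1 was the lowest library of each root group, and in deficient roots it lay 6.0 and 6.57 below the mean of the other replicates on the log2 scale.

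For these sequences 1 library decides the phosphorus difference. LAGI01_71342 differed by -1.55 (SE 1.1, limma adjusted p = 1.0) between deficient and sufficient roots, and by 0.45 without deficient root replicate 1. The latter fit keeps the low replicate 1 of sufficient roots. Within replicates 2 and 3 the differences were 0.08 and -0.21 for LAGI01_71342, and 0.58 and 0.18 for LAGI01_75083. Replicate 1 libraries were sequenced one to a lane without a barcode, and replicates 2 and 3 were barcoded and run in pairs, and the part of this format in the low values was not tested. The other pair of this wording did not share the drop. LAGI01_66324 had 32.7, 21.2 and 20.9 RPKM in deficient roots and 25.0, 15.9 and 15.9 RPKM in sufficient roots, and LAGI01_63792 had 21.7, 18.1 and 21.0 RPKM in deficient roots and 18.1, 10.9 and 11.8 RPKM in sufficient roots. In those 2, replicate 1 was the highest of its group.

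A set of 4 nodulin family sequences with parallel profiles showed the same low library. LAGI01_23421, the most abundant of that wording, had 15.0, 152.8 and 84.4 RPKM in deficient roots and 53.4, 87.8 and 93.6 RPKM in sufficient roots. LAGI01_35881, which with the remaining 2 of the set was chosen after its values were seen, had 11.2, 145.8 and 84.4 RPKM in deficient roots and 42.9, 81.4 and 86.3 RPKM in sufficient roots. LAGI01_7504 and LAGI01_52463 followed them, with 9.8 and 5.3 RPKM in deficient root replicate 1, against at least 45.6 RPKM in the other deficient root libraries. In deficient roots, replicate 1 lay more than 2 log2 units below the mean of replicates 2 and 3 in 13 of 177 members, against 3.65% of all tested sequences, and more than 2 above it in 11, against 0.892% of all. The 11 included 4 of the nodulin, putative sequences named above and 4 MtN21 sequences with one profile, LAGI01_34619, LAGI01_59739, LAGI01_65415 and LAGI01_86283. The last 4 and their counts were singled out after their values were seen.

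**Figure D4:**
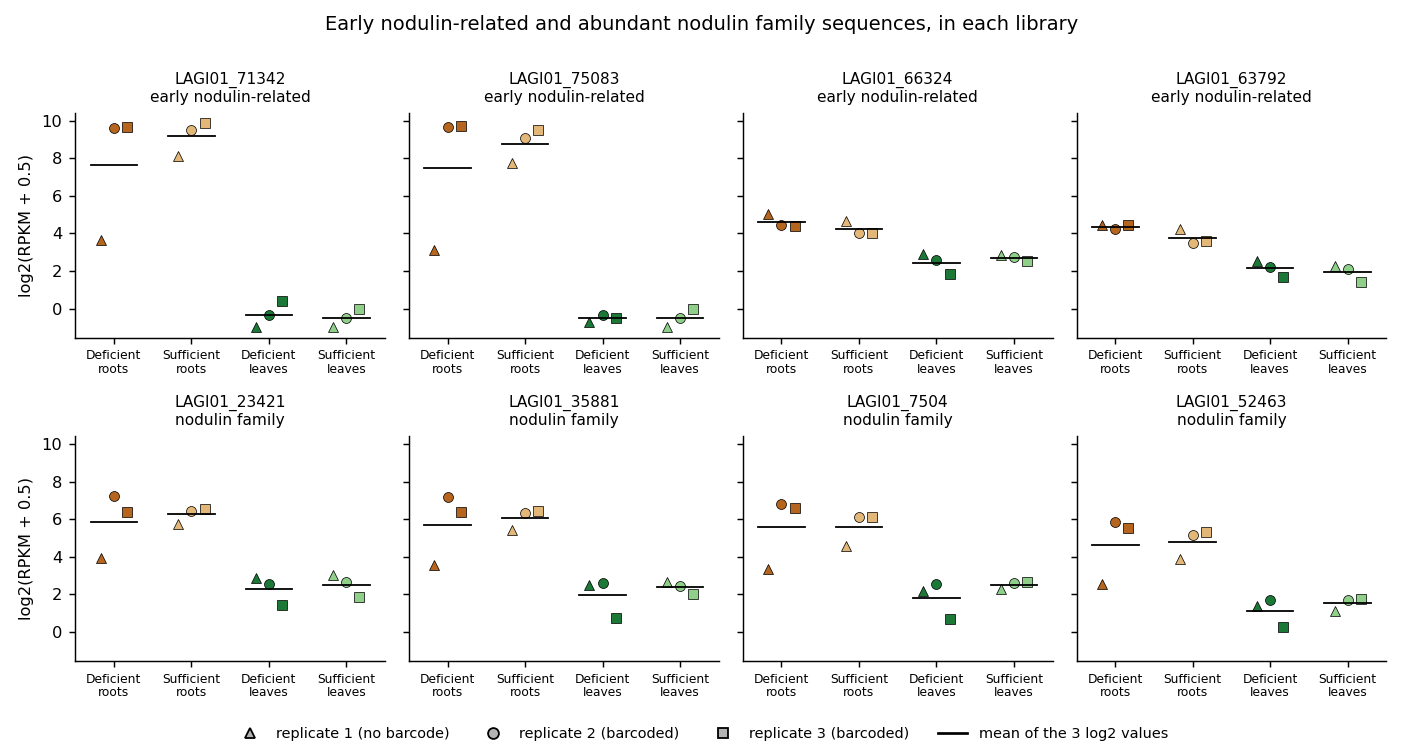
Level of the 4 early nodulin-related sequences and of 4 nodulin family sequences on the log2(RPKM + 0.5) scale in the 4 groups, with points shaped by replicate and bars for group means. In LAGI01_71342, LAGI01_75083 and the 4 nodulin family sequences replicate 1 is the lowest root library in both root groups, and in LAGI01_66324 and LAGI01_63792 it is the highest.

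The 3 ENOD18 sequences, whose description also names the universal stress protein family, were higher in roots at both supplies. Of all tested sequences, 29% were higher in roots at deficient and 24.1% at sufficient phosphorus. LAGI01_55096 had 55.0, 124.2 and 196.8 RPKM in deficient roots and 14.8, 4.4 and 1.0 RPKM in deficient leaves, groups that do not overlap (4.52, SE 0.731, limma adjusted p = 0.000102). It had 58.4, 93.0 and 136.0 RPKM in sufficient roots, against 17.0, 3.7 and 5.9 RPKM in sufficient leaves (3.55, SE 0.731, limma adjusted p = 0.000811). Between supplies its root groups overlapped (0.29, SE 0.731, limma adjusted p = 1.0). The 3 sequences correlated at 0.987 to 0.994 over the 12 libraries.

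Of the 61 MtN21 sequences tested, 32 were higher in roots (52.5%) and 4 lower (6.56%) at deficient phosphorus, where 29% and 13.2% of all tested sequences were. At sufficient phosphorus 33 were higher (54.1%) and 4 lower (6.56%), where 24.1% and 17.8% of all were. Without deficient leaf replicate 3 the counts at deficient phosphorus were 30 and 4, where 23.4% and 18.7% of all were called. LAGI01_40567, the most abundant, had 41.5, 71.6 and 118.5 RPKM in deficient roots and 1.6, 0.6 and 0.5 RPKM in deficient leaves (5.75, SE 0.464, limma adjusted p = 5.54e-08). LAGI01_10340 had 56.5, 40.6 and 42.6 RPKM in deficient roots and 0.3, 0.1 and 0.0 RPKM in deficient leaves (6.23, SE 0.372, limma adjusted p = 2.28e-09). The values of these 2 in sufficient roots were 35.9, 48.1 and 65.8 RPKM and 35.5, 29.8 and 28.4 RPKM, so the root groups overlap for LAGI01_40567 and do not for LAGI01_10340, and neither difference passed (limma adjusted p = 1.0 for each). LAGI01_42808, singled out after its values were seen, ran the other way, with 0.6, 0.7 and 0.6 RPKM in sufficient roots, against 4.6, 5.2 and 9.5 RPKM in sufficient leaves (-2.55, limma adjusted p = 0.000199).

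All 11 DUF6 sequences were higher in roots at both supplies, where 29% of all tested sequences were at deficient and 24.1% at sufficient phosphorus. Joined at a correlation of 0.95 or more, the 4 near AT1G68170 made 1 profile and the 7 near AT2G40900 made 3. LAGI01_40432 had at most 0.3 RPKM in leaves, and the root minus leaf difference was 5.13 at deficient phosphorus (SE 0.465, limma adjusted p = 1.97e-07) and 3.65 at sufficient phosphorus (SE 0.465, limma adjusted p = 7e-06). The 4 sequences near AT1G68170 were listed at 0 in all leaf libraries with the exception of 0.1 RPKM for LAGI01_57179 in sufficient leaf replicate 3. LAGI01_101639, similar to AT1G75500, which is WAT1, a vacuolar auxin transporter needed for secondary walls in Arabidopsis, had 2.3, 2.9 and 1.6 RPKM in deficient roots and 0.0, 0.0 and 0.4 RPKM in deficient leaves (2.16, SE 0.479, limma adjusted p = 0.00167).

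MtN3 sequences were found on both sides, in shares near those of all tested sequences. At deficient phosphorus 12 of 35 were higher in roots (34.3%) and 7 lower (20.0%), against 29% and 13.2% of all, and at sufficient phosphorus 12 (34.3%) and 5 (14.3%), against 24.1% and 17.8% of all. The counts at deficient phosphorus were also 12 and 7 without deficient leaf replicate 3, where 23.4% and 18.7% of all were called. LAGI01_36922, the most abundant, had 27.3, 42.2 and 62.8 RPKM in deficient roots and 0.9, 0.9 and 0.2 RPKM in deficient leaves (5.25, SE 0.489, limma adjusted p = 2.71e-07). LAGI01_60254 had 12.2, 15.0 and 13.5 RPKM in sufficient roots, against 0.3, 0.0 and 0.0 RPKM in sufficient leaves (4.58, SE 0.309, limma adjusted p = 6.64e-09). LAGI01_63801, similar to AT5G13170, the senescence-associated SWEET15 of Arabidopsis, had 11.8, 18.7 and 37.7 RPKM in deficient roots and 12.1, 15.8 and 19.3 RPKM in sufficient roots, and was listed at 0 in every leaf library.

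On the leaf side stood LAGI01_47173, with 0.4, 0.2 and 0.1 RPKM in deficient roots, against 10.4, 19.6 and 10.7 RPKM in deficient leaves (-4.22, limma adjusted p = 5.56e-07). LAGI01_47530, singled out after its values were seen, had 0.1, 0.1 and 0.5 RPKM in deficient roots and 14.5, 2.4 and 5.8 RPKM in deficient leaves (-3.19, SE 0.779, limma adjusted p = 0.0034). Its sufficient leaves held 1.2, 2.6 and 30.4 RPKM, with replicate 3 far above the others. Deficient leaf replicate 3, the library that stood apart, is the third of the deficient leaf values of both sequences, and in neither is it the lowest.

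**Figure D5:**
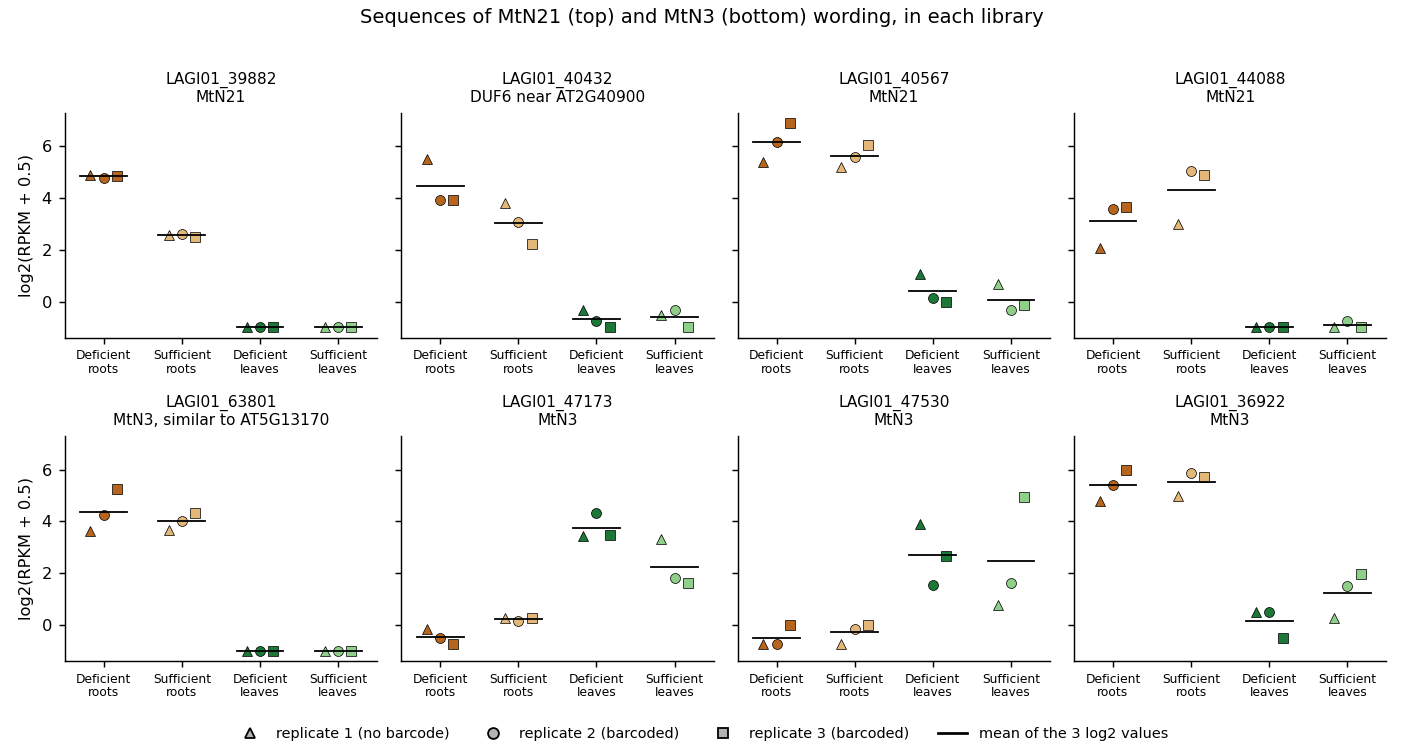
Level of 4 MtN21-type sequences (top) and 4 MtN3-type sequences (bottom) on the log2(RPKM + 0.5) scale in the 4 groups, with points shaped by replicate and bars for group means. LAGI01_39882 separates the root groups and is listed at 0 in leaves, LAGI01_36922 and LAGI01_63801 are high in roots, and LAGI01_47173 and LAGI01_47530 are high in leaves.

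The nodulin family sequences also held both kinds. At deficient phosphorus 17 of 28 were higher in roots (60.7%) and 4 lower (14.3%), against 29% and 13.2% of all tested sequences. At sufficient phosphorus 16 were higher (57.1%) and 6 lower (21.4%), against 24.1% and 17.8% of all. The lower shares were thus near those of all tested sequences. Without deficient leaf replicate 3 the counts at deficient phosphorus were 14 and 6, where 23.4% and 18.7% of all tested sequences were called. LAGI01_11772 had 11.0, 7.5 and 6.1 RPKM in deficient roots and 0.3, 0.4 and 0.3 RPKM in deficient leaves (3.35, SE 0.318, limma adjusted p = 3.4e-07). A set of 4 with one profile, LAGI01_22870, LAGI01_22890, LAGI01_24689 and LAGI01_25667, singled out after its values were seen, was a leaf set. LAGI01_24689 was listed at 0 in all deficient root libraries and had 10.3, 17.2 and 3.1 RPKM in deficient leaves, a difference of -4.14 with a limma adjusted p of 1.19e-06. Its sufficient libraries held 0.1, 0.1 and 0.0 RPKM in roots and 11.1, 8.9 and 8.0 RPKM in leaves.

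The Nodulin-like domain sequences were lower in roots in 3 of 9 cases at deficient phosphorus (33.3%, against 13.2% of all tested sequences). At sufficient phosphorus 4 of 9 were lower (44.4%, against 17.8% of all) and 1 was higher (11.1%, against 24.1% of all). Deficient leaf replicate 3 enters that comparison through the pooled spread. Without it 4 were higher and 4 lower, where 29.0% and 21.0% of all were, so the lean to leaves at sufficient phosphorus depended on that library. LAGI01_15024 had 0.1, 0.0 and 0.1 RPKM in sufficient roots, against 2.5, 1.7 and 2.2 RPKM in sufficient leaves (-2.21, SE 0.399, limma adjusted p = 0.000252). Of the 7 nodulin-related sequences, 3 were higher in roots at each supply (42.9%, against 29% of all at deficient and 24.1% at sufficient phosphorus). Lower in roots were 2 at deficient (28.6%, against 13.2% of all) and 3 at sufficient phosphorus (42.9%, against 17.8% of all). LAGI01_24357 had 5.7, 8.7 and 6.2 RPKM in deficient roots, against 0.1, 0.0 and 0.0 RPKM in deficient leaves (3.77, SE 0.318, limma adjusted p = 9.03e-08). Without deficient leaf replicate 3 the counts at deficient phosphorus were the same for the Nodulin-like domain, nodulin-related, nodulin, putative, early nodulin-related, ENOD18 and DUF6 descriptions. The uricase sequence LAGI01_39768 was higher in roots at deficient (1.83, limma adjusted p = 0.00232) and at sufficient phosphorus (1.13, limma adjusted p = 0.0421).

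The nodulin, putative description had different counts between tissues at the 2 supplies. At deficient phosphorus 5 of 10 were higher in roots and 0 lower, where 29% of all tested sequences were higher and 13.2% lower. At sufficient phosphorus 1 of 10 was higher and 1 lower, shares below the 24.1% and 17.8% of all tested sequences. LAGI01_57498 was higher at both, with differences of 4.33 at deficient (SE 0.374, limma adjusted p = 1.18e-07) and 3.28 at sufficient phosphorus (SE 0.374, limma adjusted p = 2.13e-06). The summed level of the description was higher in roots at deficient (2.02, SE 0.453, limma adjusted p = 0.000853) and did not pass at sufficient phosphorus (-0.72, SE 0.453, limma adjusted p = 0.222). These comparisons use the same root libraries in which 4 of the 10 sequences were called higher at deficient phosphorus. The change between the supplies is therefore not a result separate from the root response.

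Many members had parallel profiles. Joining sequences of one description whose log2 values correlated at 0.95 or more over the 12 libraries reduced the 177 tested sequences to 93 profiles, of which 63 held a single sequence and the largest 18 MtN21 sequences. A sequence joined a set through any 1 of its members, so not every pair within a set reached 0.95. That set of 18 included LAGI01_39882, LAGI01_10340, LAGI01_40567 and LAGI01_53370, which share the contrast of roots over leaves and differ between the root groups. The counts of members above are counts of assembled sequences, and how many genes they stand for was not tested.

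Wordings related to the members were read the same way in the root response. Over all tested sequences, limma called 0.245% higher and 0.0345% lower in that comparison, and 4.31% had an unadjusted p under 0.05. Of 116 tested sequences with iron wording, 10 were higher and 0 lower (median 0.19), and 37 had an unadjusted p under 0.05. Among the 10 were 8 of 12 described as FRD3, which exports citrate into the xylem in Arabidopsis. LAGI01_20061, of that description, differed by 4.03 (SE 0.315, limma adjusted p = 3.1e-06). None of 187 tested sugar transporter sequences passed (18 at an unadjusted p under 0.05, median -0.25), and none of 58 phytocyanin sequences (0 at an unadjusted p under 0.05, median -0.12), the copper proteins to which several early nodulins belong. Of 129 sequences with wording of the wider drug and metabolite transporter group, 1 was higher, LAGI01_66840, with 12.1, 11.0 and 8.3 RPKM in deficient roots, against 1.0, 1.5 and 0.7 RPKM in sufficient roots (2.82, SE 0.317, limma adjusted p = 0.000301).

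Markers of nodules themselves were few. Leghaemoglobin wording occurred in the descriptions of 0 matrix sequences outside the members. The descriptions come from best matches in Arabidopsis and soybean, so a leghaemoglobin matched to another haemoglobin would not carry that wording. The 0 therefore cannot decide whether nodules were present. The 2 sequences described as early nodule-specific protein summed to 0.4, 4.2 and 1.6 RPKM in deficient roots, against 5.7, 8.4 and 6.9 RPKM in sufficient roots, and were listed at 0 in every leaf library. Both were higher in roots than in leaves at sufficient phosphorus and 1 was at deficient phosphorus. Neither passed between the supplies in roots, LAGI01_84406 at -1.66 (SE 0.443, limma adjusted p = 0.229) and LAGI01_61824 at -1.51 (SE 0.427, limma adjusted p = 0.299). Of 40 tested sequences with symbiosis wording, which includes these 2 and some kinases with long descriptions, 0 passed in roots in limma (median -0.07). Of the 40, 8 had an unadjusted p under 0.05, where 4.31% of all tested sequences did.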

How the data were processed

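Poly-A RNA of 12 white lupin libraries was sequenced with single reads of 76 cycles, per the labels' protocols. The authors deposited 1 matrix of all libraries and 1 annotation table. The matrix values were taken as RPKM, a unit read from the values that the deposited files do not name. Bowtie is named in the submitters' processing notes with no version. How reads matching several sequences were handled, and the strand setting, were not stated. The total reads per library are unknown, so no counting interval is given. The 2 empty columns of the matrix were not used.

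Sequences with 1 RPKM or more in at least 3 of 12 libraries were tested on log2(RPKM + 0.5) with limma 3.58.1 (R 4.3.3), with trend, as 4 group means over all libraries and 5 contrasts. Adjustment (Benjamini-Hochberg) was over all 87081 tested sequences in the main fit and calls are at 0.05. Fits with another filter adjusted over the sequences they tested, 125535 with no filter and 38567 with a filter of 5 RPKM. Summed levels of a description were tested in a separate fit, adjusted over 10429 rows. P-values rest on a spread between plant replicates that is pooled over the 4 groups and all 12 libraries. A root comparison thus also draws on the spread of the leaf libraries, deficient leaf replicate 3 included. The script was tested on simulated data. Tables and figures used Python 3.11.15.

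The members and the related wordings were chosen with earlier results of these data known. Named sequences are the called members up to 10 a contrast and, in each description of 3 or more, the 2 with the smallest p and the most abundant, and others, marked in the text or the only sequence of their description (LAGI01_39768, LAGI01_101639, LAGI01_61571) or counted among 5 calls (LAGI01_51516), were chosen after their values were seen. The lists of root, leaf and nodule markers were matched by wording. Sequences with root wording summed to 1125.2 to 1326.6 RPKM in root libraries and 201.0 to 586.2 RPKM in leaf libraries.

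Labels number the replicates 1 to 3 in every group. Deviations from the group means of same-numbered deficient and sufficient libraries correlated at 0.751, 0.399 and 0.644 in roots and at 0.237, 0.237 and 0.126 in leaves, so the numbers were taken to pair the libraries within a tissue. The main fit does not use that pairing. The alternative fit with a replicate block within each tissue does. No 2 libraries held identical values. No sequence of the lupin assembly, its lengths or its coordinates was used here.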

Additional observations from a re-analysis of the deposited data

Results flagged for a closer look

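Of the 177 tested members, 3 had a phosphorus response that differed between roots and leaves in limma. LAGI01_74540, described as nodulin, putative, differed by 4.86, with an adjusted p of 0.000211. LAGI01_56202, of the same description, differed by 5.02, with an adjusted p of 0.00159. The MtN21 sequence LAGI01_39882 differed by 2.27, with an adjusted p of 0.0476. All 3 were higher in 3 of 3 deficient than sufficient root libraries and were listed at 0 in all 6 leaf libraries, so each value is the root response alone.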

How the results depend on the processing

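The count of members called in roots was 5 in the fits with another pseudocount, filter or scaling, with a plain replicate block, in the barcoded libraries only and without any 1 library (lowest 5, highest 5). Of all sequences, 0.109% to 0.416% were called higher in those fits. The count was 8 with a replicate block within each tissue, where the share of all sequences called higher was 0.459% against 0.245% without the block. It was 3 with the libraries of that tissue only, where 0.0574% of all were higher. When values were summed per description it was 1 description, where 0.23% of the 10429 rows tested in that fit were higher. That sum stood in for the planned sum per best-hit protein because the files do not give that protein. In leaves the count of 0 became 5 in barcoded libraries only, 1 higher and 4 lower, where 0.726% and 5.26% of all sequences were called, above the members' 0.565% and 2.26%. Leaving out 1 library gave 0 to 1, the 1 without sufficient leaf replicate 1, where 0.204% of all were higher and 1.5% lower. The difference of responses was called for 3 members, where 0.0597% of all were called, and for 1 with a pseudocount of 0.1, where 0.0218% were higher. It was called for 6 in barcoded libraries only (4 higher and 2 lower, where 1.51% and 0.284% of all were). When summed it was 0 descriptions, where 0.115% of all were higher. Without 1 library the count was 2 to 5, where 0.0322% to 0.302% of all were higher. The 5 came without sufficient leaf replicate 1 and added LAGI01_55606 and LAGI01_47173. Root minus leaf was called for 112 members at deficient and 114 at sufficient phosphorus. A filter of 5 RPKM left 98 members to test and called 72 and 75. At deficient phosphorus 66 were higher and 6 lower, where 40.4% and 18.2% of all were. At sufficient phosphorus 67 were higher and 8 lower, where 32.1% and 21.9% of all were. When summed, 13 and 12 of 16 descriptions were called, all higher, where 29.7% and 22.1% of all were higher. Without 1 library the counts were 102 to 112 at deficient and 100 to 121 at sufficient phosphorus. Of all sequences, 22.0% to 32.4% and 19.0% to 29.0% were then higher, and 10.2% to 18.7% and 14.5% to 21.0% lower. The plain replicate block changed no other call count by over 1.5 times. Under a replicate block within each tissue LAGI01_62142 joined the difference of responses (3.36, adjusted p = 0.0244). The cause of these shifts was not tested.

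Of the single values of named sequences, 1004 kept direction and side of the threshold, 18 no longer passed, 9 newly passed and 13 changed sign, all 13 of them uncalled. Without 1 library each, the root values ran from -0.1 to 1.05 for LAGI01_49637, from -0.13 to 0.79 for LAGI01_55096 and from -2.57 to 0.45 for LAGI01_71342, and the last was above 0 only without deficient root replicate 1. The leaf values ran from -0.03 to 0.83 for LAGI01_37732, from -1.52 to 0.15 for LAGI01_55096, from -0.87 to 0.25 for LAGI01_49637, from -0.63 to 0.39 for LAGI01_76373, from -0.48 to 0.04 for LAGI01_66324, from -0.04 to 0.44 for LAGI01_63792 and from -1.07 to 0.03 for LAGI01_51169. With median-of-ratios scaling the leaf value of LAGI01_66324 was 0.02. That scaling moved the median of all sequences to -0.04 in the leaf response and 0.06 in the difference of responses. In leaves 40 tested members (22.6%, against 7.72% of all tested sequences) had at most 0.5 RPKM in every library, and the part of low values in the leaf count was not tested.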

Other observations

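Sequences described as ferritin, the iron storage protein of plastids, were read after their values were seen. The 28 sequences summed to 482.0, 319.1 and 372.7 RPKM in deficient roots, against 186.4, 152.3 and 162.5 RPKM in sufficient roots, groups that do not overlap. In leaves they summed to 802.8, 1040.3 and 308.5 RPKM in deficient plants and to 377.7, 869.4 and 843.1 RPKM in sufficient plants. Of the 25 tested, 0 were called in roots by limma, with a median difference of 1.18. Of these, 12 had an unadjusted p under 0.05, where 4.31% of all tested sequences did. The 2 sequences described as VIT1, the vacuolar iron transporter of Arabidopsis, summed to 10.3, 4.6 and 4.6 RPKM in deficient roots and to 6.4, 5.2 and 3.1 RPKM in sufficient roots. Neither was called between the supplies in roots or in leaves. At sufficient phosphorus both were called lower in roots than in leaves, where 17.8% of all tested sequences were.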
